A study of Mus musculus with 8 samples.

Results

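The genes of mitochondrial DNA and 3 abundant copies of them in nuclear DNA were examined in brown adipose tissue (BAT) of mice with cancer-associated cachexia (CAC) and of control mice (CTR). Members were found by gene symbol, as all genes whose symbol starts with mt- together with Gm28437, Gm10925 and Gm28661. This gave 37 mitochondrially encoded genes (13 mRNAs, 2 rRNAs and 22 tRNAs) and 3 copies, or 40 of the 56953 genes counted. RNA was sequenced from the BAT of 8 wild-type C57BL/6J mice, male or female and aged 8 to 10 weeks at injection, with 4 mice in each group. CAC mice carried a tumour grown from 3000000 Lewis lung carcinoma (LLC) cells, a mouse lung cancer cell line, placed under the skin of the right flank in 100 µL of PBS. CTR mice were injected with PBS without cells. Only mice in which a tumour grew entered the CAC group, all mice were housed at the same temperature, and the tissue was taken whole, with all the cell types it holds. The comparison asks how the RNA of mitochondrial DNA in BAT differs between tumour-bearing and control mice.

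Brown adipocytes are packed with mitochondria, whose respiratory chain is uncoupled from ATP production by UCP1 to release heat. Most respiratory chain proteins are encoded in the nucleus, but mitochondrial DNA keeps genes for core subunits of complexes I, III, IV and V, together with the rRNAs and tRNAs that translate them inside the organelle. Both strands of mitochondrial DNA are transcribed into long RNAs, from which tRNAs are cut out, leaving mRNAs and rRNAs between them. Pieces of mitochondrial DNA have also been inserted into nuclear chromosomes during evolution, and reads from such a copy and from its parent gene can be alike.

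The 3 copies lie next to each other on the minus strand of chromosome 1, where GENCODE M21 (GRCm38) annotates them as unprocessed pseudogenes. Gm28661 (ENSMUSG00000102070.2, chr1:24614885-24615565) matched mt-Co2 over all its 681 bases, Gm10925 (ENSMUSG00000100862.2, chr1:24613974-24614651) matched mt-Atp6 over all its 678 bases and Gm28437 (ENSMUSG00000101111.2, chr1:24613189-24613971) matched mt-Co3 over all its 783 bases. Each match had 100% identity and 0 gaps. The annotated copies differ from their parents in length alone, since they stop before the last bases of the parent. The ends of the copies and parents are shown to let this be seen, with the bases of the parent beyond the end of the copy in capitals (mitochondrial positions chrM:7634-7696 for mt-Co2, chrM:8545-8607 for mt-Atp6 and chrM:9330-9390 for mt-Co3, plus strand, with the matching copy ends at chr1:24614885-24614944, chr1:24613974-24614033 and chr1:24613189-24613248, minus strand).
mt-Co2: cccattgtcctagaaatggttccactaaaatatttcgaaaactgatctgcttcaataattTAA
Gm28661: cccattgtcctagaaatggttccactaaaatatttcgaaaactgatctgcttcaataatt
mt-Atp6: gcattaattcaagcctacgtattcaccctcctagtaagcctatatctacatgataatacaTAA
Gm10925: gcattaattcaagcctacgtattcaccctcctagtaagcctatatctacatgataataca
mt-Co3: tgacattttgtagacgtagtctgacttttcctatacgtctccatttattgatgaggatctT
Gm28437: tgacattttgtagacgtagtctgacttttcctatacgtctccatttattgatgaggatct

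These copies are part of a longer block, in which further copies follow the order of mitochondrial DNA from mt-Co1 to mt-Nd4 (chr1:24611535-24616197). Gm29216 matched the last 483 bases of mt-Co1 with 1 differing base, A1066T, counted from the first base of mt-Co1, with the parent's base first. Gm28438 matched mt-Nd3 over 345 bases with 1 differing base, T3C, counted from the first base of mt-Nd3. Gm10222 matched mt-Nd4l over 294 bases and Gm28439 matched the first 876 of the 1378 bases of mt-Nd4, both with 0 differing bases. The windows at the differing bases are shown, with the differing base as a capital (chrM:6390-6413 against chr1:24616165-24616188, and chrM:9459-9481 against chr1:24613097-24613119).
mt-Co1: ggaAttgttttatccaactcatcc
Gm29216: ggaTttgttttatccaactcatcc
mt-Nd3: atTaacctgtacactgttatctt
Gm28438: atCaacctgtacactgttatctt
The libraries were read in 75 cycles from 1 end, so that a read which lies inside the shared bases and away from these positions holds nothing that separates a copy from its parent. The 4 other copies with a mean of at least 5 CPM (CPM being counts scaled to a common library size, here with TMM factors) were Gm13341, Gm13340 and Gm13339 on chromosome 2 and Gm4076 on chromosome 13, which matched mt-Co2, mt-Co1, mt-Nd2 and mt-Nd5 at 95.9%, 97.6%, 96.7% and 95.2% identity.

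CTR libraries held 2454493 to 4827956 counts each and CAC libraries 1823167 to 3392538. A count of 0 leaves room for up to 3 counts, or 0.661 to 1.62 CPM here, for counting error only. All 40 members had counts that were not whole numbers, to the decimals deposited, in at least 1 library, and 14 had them in all 8. The labelled tissue was checked against 7 brown adipocyte markers, all of them detected, whose summed level was 11478 to 13699 CPM in CTR and 11297 to 14887 CPM in CAC. All markers of other cell types were detected as well. The 6 neutrophil markers S100a8, S100a9, Retnlg, Ly6g, Mpo and Elane summed to 5.76 to 6.43 CPM in CTR and 160.4 to 424.5 CPM in CAC. The authors place S100A9 protein in brown adipocytes and report no significant change in neutrophil number, so this sum does not count neutrophils. Summed levels in CTR and CAC were 6179 to 19267 CPM and 14631 to 44313 CPM for 5 erythroid markers. For 9 skeletal muscle markers they were 953 to 2436 CPM and 2076 to 4014 CPM. For 5 macrophage markers they were 97.7 to 124.9 CPM and 148.1 to 192.8 CPM. The summed level of 5 general adipocyte markers was 8161 to 8905 CPM in CTR and 7427 to 8716 CPM in CAC, and that of 4 endothelial markers was 222.7 to 293.2 CPM and 187.3 to 257.4 CPM. The part of these cell types in the values that follow was not tested. In whole tissue, fewer cells of a type and less RNA per cell cannot be told apart.

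Mitochondrially encoded genes took up 28.5% to 33.8% of the counts of each library. They held 31.4%, 29.5%, 30.3% and 33.8% of all counts in CTR 1 to 4 and 30.6%, 28.5%, 29.6% and 30.8% in CAC 1 to 4, with means of 31.2% ± 1.86 and 29.9% ± 1.05 (SD, n = 4). The groups overlapped, and the difference of -1.35 percentage points was between the SDs of the CAC and CTR groups. Without CTR 4 the difference was -0.503, without CAC 2 it was -0.884, and without any other library it lay between -1.26 and -1.93 percentage points. For counting error alone, the Wilson 95% interval of the shallowest library, CAC 2, ran from 28.4% to 28.6%. The mRNAs held 28.1% to 33.3% of all counts, the rRNAs 0.217% to 0.373% and the tRNAs 0.115% to 0.14%. A single mRNA, mt-Nd4, held 13.3% to 16.0% of all counts and 45.1% to 54.0% of the mitochondrial counts.

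The 3 nuclear copies are reported apart. They held 7.33%, 7.07%, 7.16% and 7.77% of all counts in CTR 1 to 4 and 6.01%, 6.44%, 6.50% and 6.98% in CAC 1 to 4. The CAC libraries all lay below the CTR libraries in this share, which is given as a description with no test. With the copies added to the mitochondrial genes, CTR libraries averaged 38.6% ± 2.17 and CAC libraries 36.4% ± 1.17 (SD, n = 4), with overlapping groups.

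**Figure D1:**
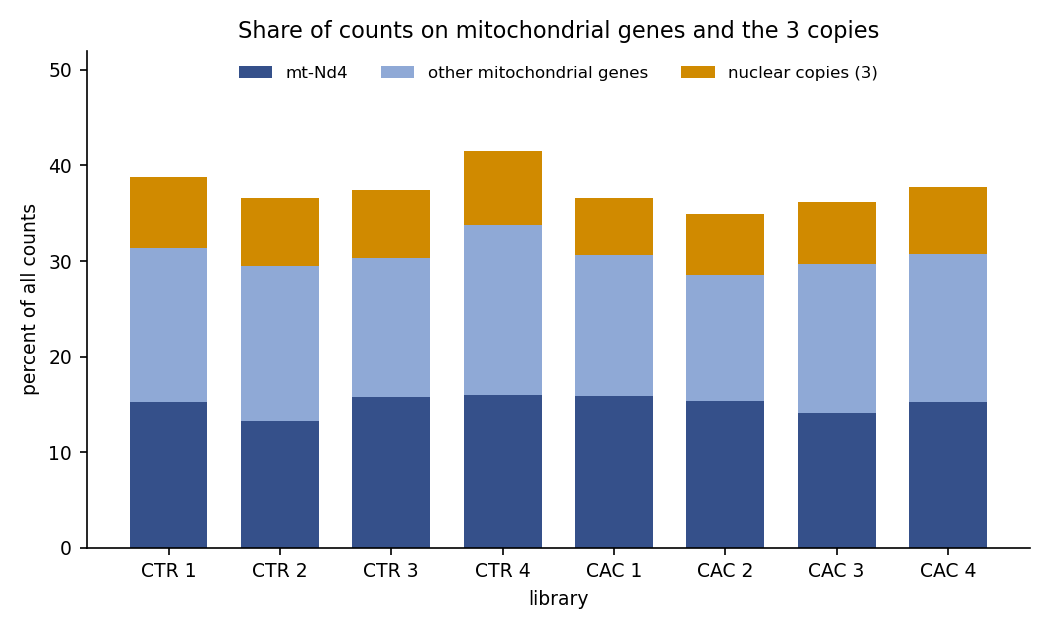
Percent of all counts (y axis) in each of the 8 libraries (x axis), stacked from mt-Nd4, the other mitochondrially encoded genes and the 3 nuclear copies. The copies add 6.01% to 7.77% to a mitochondrial share of 28.5% to 33.8%.

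Within mitochondrial DNA the mRNAs differed widely in level, and their order was led by mt-Nd4. Levels of different genes are compared as CPM per kb of annotated length, a scale that assumes reads along the whole RNA. Whether the libraries cover whole RNAs or their ends was not stated in the labels. On that scale mt-Nd4, a membrane arm subunit of complex I, had a mean of 111150 CPM per kb over the 8 libraries (range 91941 to 123666), and its range lay above that of every other mitochondrial mRNA and rRNA. It was followed by mt-Atp6, mt-Cytb, mt-Nd2, mt-Co3 and mt-Nd1, with means from 33128 down to 22343 CPM per kb, whose neighbours in this order had overlapping ranges. The range of mt-Co2 (9883 to 14876 CPM per kb) lay below theirs. This order leaves out reads that were counted to the copies, whose bases are those of mt-Co3, mt-Atp6 and mt-Co2. With the 3 copies added to their parents, mt-Nd4 was still highest, mt-Co3 (mean 71874 CPM per kb, range 63721 to 83079) and mt-Atp6 (mean 66454, range 56850 to 79411) came next with overlapping ranges, and the range of mt-Co2 (23109 to 32762 CPM per kb) overlapped those of mt-Cytb, mt-Nd2 and mt-Nd1. The lower mRNAs were mt-Nd4l, mt-Nd3, mt-Nd6, mt-Co1, mt-Nd5 and mt-Atp8, with means from 5197 to 1880 CPM per kb and overlapping neighbours. The place of mt-Nd4l at their head rested on CAC 3, without which its mean was 2015 CPM per kb, and in 7 of the 8 libraries it was below both mt-Nd3 and mt-Nd6. The mean of mt-Nd4 was 59.1 times that of mt-Atp8 on this scale. Gm28439, which holds the first 876 of the 1378 bases of mt-Nd4, had 0.00584 to 0.00896 times the counts of mt-Nd4. Where along mt-Nd4 the reads lie was not tested. Of the mRNAs and rRNAs, the rRNAs had the lowest means, at 1487 CPM per kb for mt-Rnr2 and 731 CPM per kb for mt-Rnr1, but mt-Atp8 was below mt-Rnr2 in 5 of the 8 libraries. The rRNAs were this low although rRNAs are the most abundant RNAs of mitochondria in intact tissue. The libraries were prepared by an mRNA sequencing service, and how its preparation treats rRNAs and tRNAs was not stated.

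**Figure D2:**
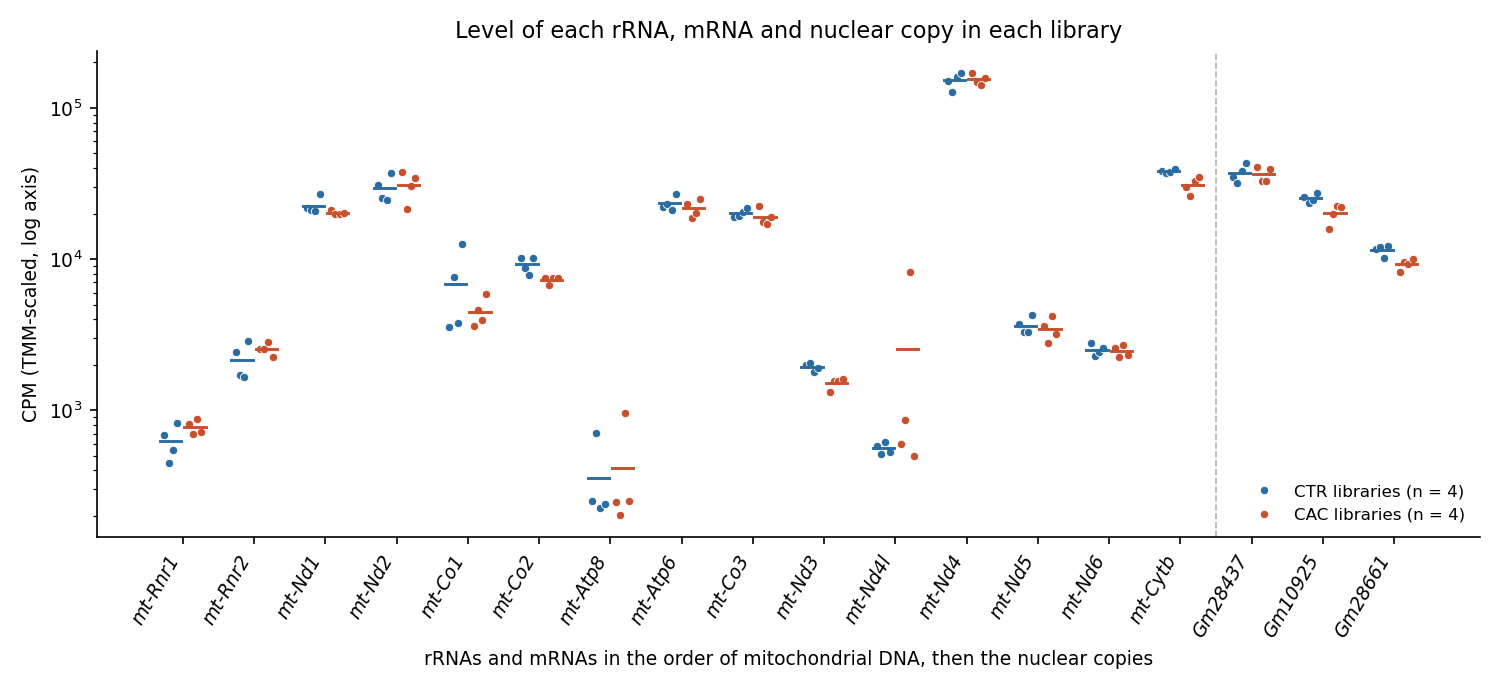
Level in CPM on a log axis (y axis) of the 2 rRNAs and 13 mRNAs in the order of mitochondrial DNA and of the 3 copies (x axis), with 1 point per library and a line at each group's mean. mt-Nd4 lies above all others, and mt-Nd4l has a single CAC library at 8158 CPM.

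In the comparison of CAC with CTR, 27 of the 37 mitochondrially encoded genes and all 3 copies passed the low-count filter, and edgeR's quasi-likelihood test gave no member an adjusted p below 0.05, against 92 of all 9876 genes tested (0.932%). With an unadjusted p below 0.05 there were 3 mitochondrially encoded genes of 27 (11.1%), mt-Nd3, mt-Co2 and mt-Cytb, all with a lower mean in CAC, and 2 of the 3 copies, Gm28661 and Gm10925, while 12.9% of all genes tested had such a p. The count was 5 of 27 (18.5%) without CTR 4, where 13.7% of all genes had such a p, and 3 to 4 without any other library. This share was above that of all genes without CTR 1 (10.7% beside 10.4%) or CTR 2 (10.7% beside 9.93%). It was also above it without CAC 2 (14.3% beside 11.3%) or CAC 3 (14.3% beside 12.1%). It was below it without CTR 3 (10.7% beside 12.2%), CAC 1 (11.1% beside 13.2%) or CAC 4 (11.1% beside 11.9%). It was also above the share of all genes by library size scaling (18.5% beside 12.3%), by DESeq2 (8.33% beside 4.39%) and with no filter (16.2% beside 9.51%). The same held with the replicate number as a block (14.8% beside 13.1%). With 3 or all 11 copies added to their parents it was 14.8%, beside 13% and 12.9%. It was below by upper quartile scaling (11.1% beside 13.2%) and with at least 10 counts per library (12% beside 13.8%). It was also below when scaled on genes outside mitochondrial DNA and the 3 copies (11.1% beside 13%) and on the deposited signal (9.09% beside 11.8% or 11.7%). By DESeq2, 1 mitochondrially encoded gene, mt-Nd3, and 1 of the 3 copies, Gm28661, had an adjusted p below 0.05, beside 112 of the 8808 genes given an adjusted p (1.27%). With no filter on low counts, edgeR's test called 3 mitochondrially encoded genes (mt-Nd3, mt-Co2 and mt-Cytb) and 2 of the 3 copies (Gm10925 and Gm28661), beside 351 of 23730 genes (1.48%). Of the 27 genes, 17 had a negative and 10 a positive log2 fold change, with a median of -0.08, where the median of all genes tested was 0.00 to 2 decimals. All CAC libraries lay below all CTR libraries in 4 of the 27 (14.8%), mt-Nd3, mt-Co2, mt-Cytb and mt-Tt, and in 2 of the 3 copies, beside 3.39% of all genes tested. No member had all its CAC libraries above the CTR libraries, beside 3.65% of all genes tested. The 2 copies named share their bases with mt-Co2 and mt-Atp6, so their values are not independent of those of their parents.

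**Figure D3:**
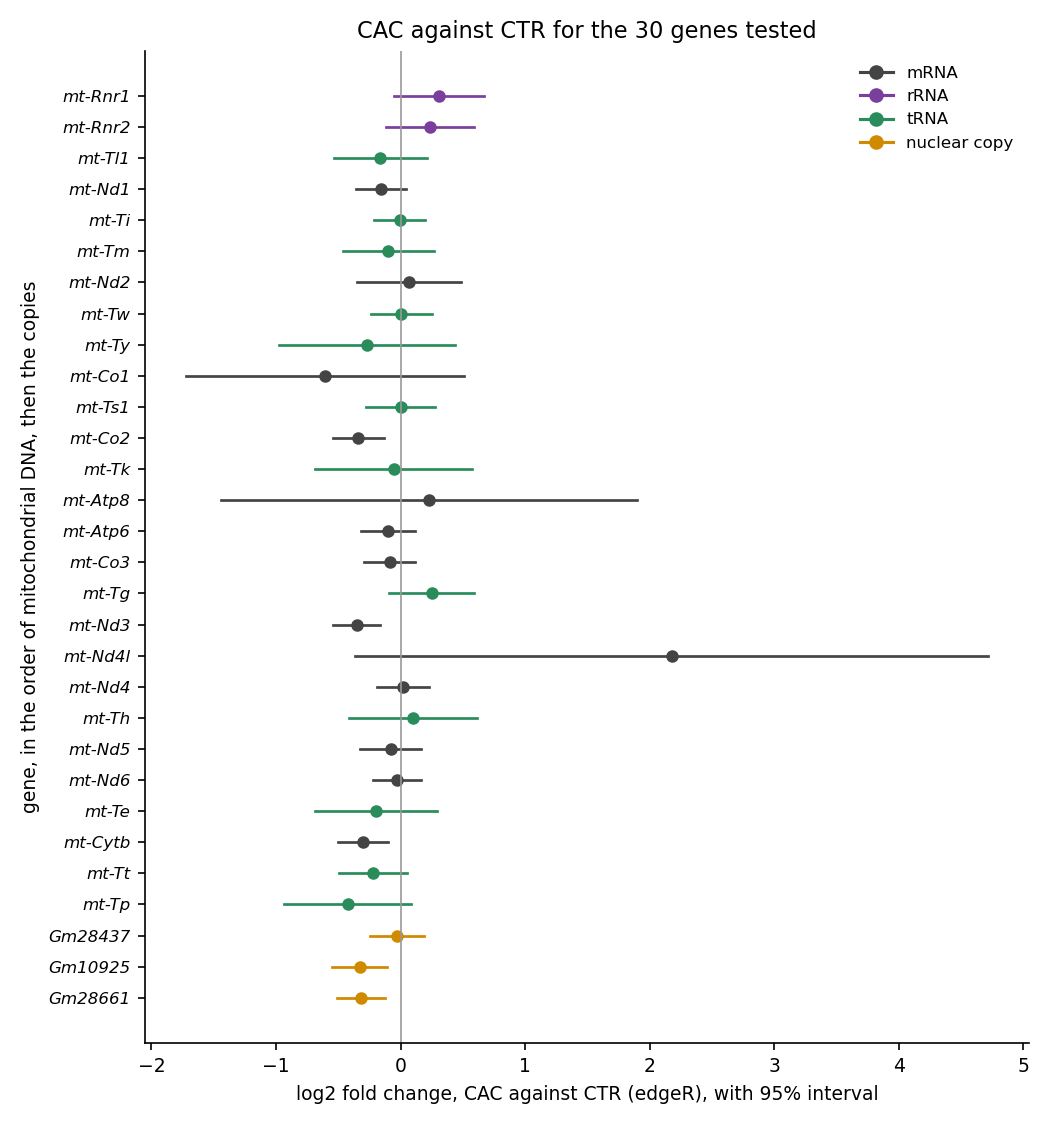
Log2 fold change of CAC against CTR by edgeR (x axis) with its 95% interval for the 27 mitochondrially encoded genes and 3 copies tested (y axis). Intervals that lie below 0 belong to mt-Co2, mt-Nd3, mt-Cytb, Gm10925 and Gm28661, before any adjustment for the number of genes, and the widest belongs to mt-Nd4l.

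Complex I, which takes electrons from NADH, has 7 subunits encoded by mitochondrial DNA, and their RNAs did not share a direction. mt-Nd3 (ENSMUSG00000064360.1, chrM:9459-9806) encodes a small subunit near the ubiquinone site. It was at 1983, 2044, 1792 and 1914 CPM in CTR 1 to 4 and at 1319, 1552, 1571 and 1615 CPM in CAC 1 to 4. Every CAC library was below every CTR library, with means of 1933 ± 108 for CTR and 1514 ± 133 CPM for CAC (SD, n = 4) and a ratio of means of 0.783. The log2 fold change was -0.35 ± 0.09 (SE), and edgeR gave an adjusted p of 0.0731, above the threshold of 0.05, where DESeq2 gave 0.0118. mt-Nd4 (ENSMUSG00000064363.1, chrM:10167-11544) was at 151174, 126694, 160187 and 170412 CPM in CTR and at 170254, 149375, 140635 and 156591 CPM in CAC. Its groups overlapped throughout, with a log2 fold change of 0.02 and a 95% interval from -0.19 to 0.23.

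mt-Nd1 and mt-Nd2 encode subunits of the membrane arm of complex I. mt-Nd1 averaged 22550 ± 2853 CPM in the CTR group against 20215 ± 705 CPM in the CAC group (SD, n = 4), with a log2 fold change of -0.16 (interval -0.36 to 0.04) that was -0.06 without CTR 4. mt-Nd2 was at 29452 ± 5797 and 30843 ± 6939 CPM, with a log2 fold change of 0.07 (interval -0.35 to 0.48). The groups of both genes overlapped. mt-Nd5, a proton-pumping subunit, averaged 3624 ± 468 CPM in the CTR group against 3433 ± 599 CPM in the CAC group, with a log2 fold change of -0.08 (interval -0.32 to 0.17). mt-Nd6, the only mRNA transcribed from the other strand, was at 2518 ± 216 and 2469 ± 212 CPM, with a log2 fold change of -0.03 (interval -0.22 to 0.17). mt-Nd5 and mt-Nd6 overlap by 14 bases on opposite strands, and the strand setting of the counting was not stated. mt-Nd4l, the remaining complex I mRNA, is described with mt-Co1 and mt-Atp8.

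Complex III passes electrons from ubiquinol to cytochrome c, and mitochondrial DNA encodes 1 of its subunits, cytochrome b. mt-Cytb (ENSMUSG00000064370.1, chrM:14145-15288) was at 38377, 37292, 37826 and 39134 CPM in CTR 1 to 4 and at 29889, 26027, 32768 and 35072 CPM in CAC 1 to 4. The CTR libraries lay close together and all above the CAC libraries, with means of 38157 ± 788 and 30939 ± 3901 CPM (SD, n = 4) and a ratio of means of 0.811. The log2 fold change was -0.30 ± 0.10 (SE), and edgeR gave an adjusted p of 0.151.

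Complex IV, cytochrome c oxidase, has its 3 catalytic core subunits in mitochondrial DNA. mt-Co2 (ENSMUSG00000064354.1, chrM:7013-7696), the subunit that receives electrons from cytochrome c, was at 10175, 8781, 7864 and 10154 CPM in CTR 1 to 4 and at 7539, 6760, 7459 and 7485 CPM in CAC 1 to 4. The groups did not overlap, with means of 9244 ± 1127 and 7311 ± 369 CPM (SD, n = 4) and a ratio of 0.791. The log2 fold change was -0.34 ± 0.10 (SE), and edgeR gave an adjusted p of 0.103. mt-Co3 averaged 20202 ± 1296 CPM in the CTR group against 19038 ± 2427 CPM in the CAC group, with a log2 fold change of -0.09 (interval -0.29 to 0.12) and overlapping groups. mt-Co1, which carries the site where oxygen is reduced, had a log2 fold change of -0.61 with an interval from -1.73 to 0.51, and its libraries are described below.

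Complex V, the ATP synthase, has 2 subunits of its membrane part in mitochondrial DNA. mt-Atp6 was at 22200, 23101, 21249 and 26809 CPM in CTR 1 to 4 and at 23216, 18731, 20294 and 24884 CPM in CAC 1 to 4. The groups overlapped, with a log2 fold change of -0.10 (interval -0.32 to 0.12) that was -0.02 without CTR 4. Its copy Gm10925 had groups that did not overlap, so the parent and the copy differed in that respect although their bases are the same. mt-Atp8 shares its last 43 bases with the start of mt-Atp6, shown here in capitals (chrM:7907-7989, plus strand), so reads in them belong to both genes.
mt-Atp8 to mt-Atp6: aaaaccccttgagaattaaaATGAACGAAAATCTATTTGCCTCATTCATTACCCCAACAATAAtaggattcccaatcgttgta

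As a share of the counts of mitochondrial mRNAs, complex I held 69.5%, 65.2%, 70.0% and 68.7% in CTR 1 to 4 and 73.1%, 72.8%, 71.5% and 70.3% in CAC 1 to 4. The groups did not overlap, and the values are a description with no test. Without mt-Nd4 the other 6 complex I mRNAs held 17.5% to 20.6% in CTR and 17.9% to 23.0% in CAC, with overlapping groups. The 23.0% was that of CAC 3, where mt-Nd4l reached 8158 CPM, and the other CAC libraries held 17.9% to 20.6%. Complex III held 11.05% to 13.4% in CTR and 9.22% to 11.3% in CAC, complex IV 10.5% to 12.8% and 9.84% to 10.7%, and complex V 7.04% to 8.57% and 6.96% to 8.08%. With the 3 copies added to their parents, complex I held 52.4% to 56.5% in CTR and 57.2% to 61.0% in CAC, still without overlap, complex IV 21.0% to 23.1% and 19.9% to 21.4%, and complex V 12.2% to 13.7% and 10.1% to 12.4%. Since these shares sum to the whole, a higher share of 1 complex lowers those of the others.

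The rRNAs form the core of the mitochondrial ribosome. mt-Rnr1, the small subunit rRNA, was at 690, 447, 541 and 818 CPM in CTR 1 to 4 and at 812, 697, 869 and 712 CPM in CAC 1 to 4. mt-Rnr2, the large subunit rRNA, was at 2423, 1704, 1665 and 2848 CPM in CTR and at 2557, 2530, 2835 and 2259 CPM in CAC. In both genes CTR 2 and CTR 3 were lowest and the groups overlapped. The log2 fold changes were 0.31 for mt-Rnr1 (interval -0.05 to 0.67, adjusted p by edgeR of 0.472) and 0.24 for mt-Rnr2 (interval -0.12 to 0.59, adjusted p by edgeR of 0.592). With 1 library left out they ran from 0.17 to 0.47 and from 0.13 to 0.41.

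Of the 22 tRNAs, which carry amino acids to the mitochondrial ribosome, 12 were tested and 10 were too low, with totals of 1.83 to 74.9 counts over all 8 libraries. mt-Ti (for isoleucine) and mt-Tw (for tryptophan) held 85.4% of all tRNA counts. mt-Ti averaged 577.2 ± 75.8 CPM in the CTR group against 574.7 ± 31.4 CPM in the CAC group, and mt-Tw was at 477.1 ± 101.0 and 479.4 ± 24.8 CPM (SD, n = 4). Their log2 fold changes were -0.01 (interval -0.21 to 0.20) and 0.01 (interval -0.24 to 0.25). In the annotation they are the tRNAs that share 2 bases with an mRNA before them on the same strand, mt-Nd1 and mt-Nd2, and those bases are shown in capitals (chrM:3706-3774 and chrM:4950-5016, plus strand).
mt-Ti: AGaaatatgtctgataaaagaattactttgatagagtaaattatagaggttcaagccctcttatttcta
mt-Tw: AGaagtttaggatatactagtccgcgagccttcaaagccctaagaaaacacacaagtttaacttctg

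The other 10 tested tRNAs had means of 3.47 CPM, in mt-Ty (for tyrosine), to 31.2 CPM. mt-Th (for histidine), which is separated from the end of mt-Nd4 by 1 base, averaged 7.19 ± 1.92 CPM in the CTR group against 7.77 ± 0.702 CPM in the CAC group (SD, n = 4). mt-Tt (for threonine) was at 35.1, 31.7, 35.1 and 32.8 CPM in CTR 1 to 4 and at 29.4, 28.5, 25.7 and 31.5 CPM in CAC 1 to 4. Its groups did not overlap, with a log2 fold change of -0.22 ± 0.13 (SE), and edgeR gave an adjusted p of 0.499. Over the 12 tested tRNAs, log2 fold changes ran from -0.43 in mt-Tp (for proline) to 0.25 in mt-Tg (for glycine), with 8 negative and 4 positive and a median of -0.08, and the smallest edgeR adjusted p was 0.492. The 10 tRNAs below the filter had means of 0.0776 to 3.20 CPM, and 5 tRNAs had a count of 0 in at least 1 library. mt-Tf (for phenylalanine) had 0 counts in all 4 CAC libraries and at most 1 count in CTR, so that no difference was detectable at this depth.

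Gm28661, the copy of mt-Co2, was at 11722, 11983, 10159 and 12255 CPM in CTR 1 to 4 and at 8267, 9539, 9293 and 9940 CPM in CAC 1 to 4. All CAC libraries were below all CTR libraries, with means of 11530 ± 939 and 9260 ± 713 CPM (SD, n = 4). The log2 fold change was -0.32 ± 0.09 (SE), and edgeR gave an adjusted p of 0.112, beside -0.34 for its parent. Gm10925, the copy of mt-Atp6, was at 25698, 23436, 24663 and 27270 CPM in CTR and at 15822, 19984, 22516 and 22169 CPM in CAC. Its groups did not overlap either, with a log2 fold change of -0.33 ± 0.11 (SE), and edgeR gave an adjusted p of 0.155, beside -0.10 for its parent. Gm28437, the copy of mt-Co3, was at 35098, 31995, 38121 and 43226 CPM in CTR and at 40368, 32886, 32826 and 39318 CPM in CAC. Its groups overlapped, with a log2 fold change of -0.03 (interval -0.25 to 0.19), beside -0.09 for its parent.

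The counts of each copy were close to those of its parent or above them. Gm28437 held 1.66 to 1.97 times the counts of mt-Co3 in CTR and 1.79 to 2.08 times in CAC. Gm28661 held 1.15 to 1.36 times the counts of mt-Co2 in CTR and 1.10 to 1.41 times in CAC. Gm10925 held 1.01 to 1.16 times the counts of mt-Atp6 in CTR and 0.682 to 1.11 times in CAC, where the lowest value was that of CAC 1. On the log2 scale the ratio differed between CAC and CTR by 0.06 for Gm28437 (exact two-sided permutation test p = 0.4), by -0.24 for Gm10925 (exact permutation p = 0.286) and by 0.02 for Gm28661 (exact permutation p = 0.886). A read inside the shared bases fits copy and parent alike, and reads were counted with a multi-mapping option. These tests therefore cannot show whether the RNA of a copy and that of its parent changed apart. Without CAC 1 the difference for Gm10925 was -0.09. That for Gm28437 was 0.017 without CTR 2 and 0.10 without CTR 4. Adjusted over the 3 ratios these p-values were 0.6, 0.6 and 0.886, and 0.0286 is the smallest that 4 against 4 mice allow in this exact test. The sum of Gm28661 and mt-Co2 had groups that did not overlap, with 18024 to 22409 CPM in CTR and 15807 to 17425 CPM in CAC, while the sums of Gm28437 with mt-Co3 and of Gm10925 with mt-Atp6 had overlapping groups. With the counts of the 3 copies added to their parents before testing, mt-Co2 had a log2 fold change of -0.32 (adjusted p by edgeR of 0.0976), mt-Atp6 -0.21 (adjusted p = 0.332) and mt-Co3 -0.04 (adjusted p = 0.903).

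Other copies of the block ranged from near the counts of their parents to far below them. Gm28438 held 1.08 to 1.15 times the counts of mt-Nd3, and its groups did not overlap, with means of 2146 ± 109 and 1718 ± 144 CPM (SD, n = 4, log2 fold change -0.32, adjusted p by edgeR of 0.101). DESeq2 called it (adjusted p = 0.0249), as did edgeR with no filter on low counts (0.0140). Gm28439, whose 876 bases are also those of the start of mt-Nd4, held 0.00584 to 0.00896 times the counts of mt-Nd4. The place of the reads along mt-Nd4 was not tested. Of the copies on chromosome 2, Gm13339 resembles the last 510 bases of mt-Nd2. It held 0.0179 to 0.0227 times the counts of mt-Nd2 in CTR and 0.0103 to 0.0167 times in CAC. The groups of this ratio did not overlap, with a log2 difference of -0.53 that was not tested. Gm13339 averaged 586 ± 80.1 CPM in the CTR group against 424 ± 72.9 CPM in the CAC group, with overlapping groups and a log2 fold change of -0.46 (adjusted p by edgeR of 0.0764), while mt-Nd2 had a log2 fold change of 0.07. Gm13339 was called by DESeq2 (adjusted p = 0.0490), and by edgeR with no filter (0.000306), without CTR 3 (0.0260) and without CAC 3 (0.0474). Gm13341, the chromosome 2 copy of mt-Co2, was at 34.8 ± 3.05 and 27.0 ± 2.23 CPM without overlap (log2 fold change -0.35, adjusted p by edgeR of 0.249). Gm13340 was at 46.9 to 68.5 CPM and Gm4076 at 2.16 to 26.3 CPM over the 8 libraries, each with overlapping groups.

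**Figure D4:**
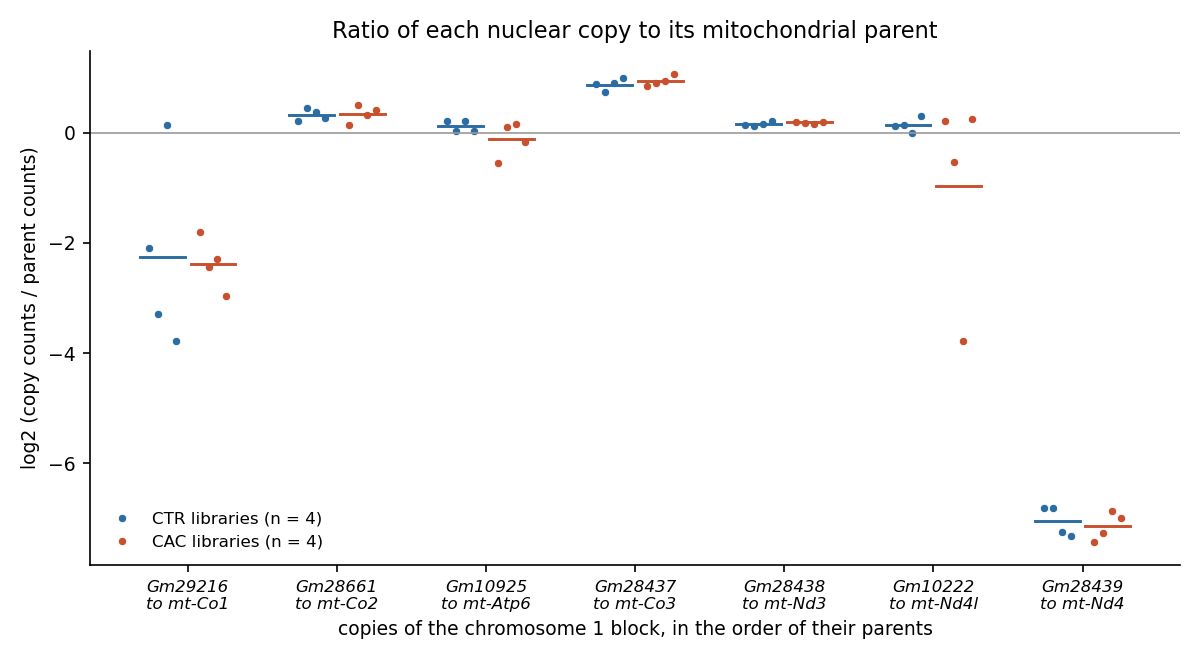
Log2 ratio of the counts of each copy of the chromosome 1 block to those of its parent (y axis), for the 7 copies in the order of their parents (x axis), with 1 point per library and a line at each group's mean. Ratios of Gm28438, Gm28661 and Gm28437 vary little between libraries, while those of Gm29216 and Gm10222 each have a library far from the rest.

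The mRNAs mt-Nd4l, mt-Co1 and mt-Atp8 and the copy Gm29216 each had 1 or 2 libraries well above the rest. mt-Nd4l (ENSMUSG00000065947.1, chrM:9877-10173), a small complex I subunit, was at 579, 514, 619 and 530 CPM in CTR 1 to 4 and at 593, 855, 8158 and 500 CPM in CAC 1 to 4. The value of CAC 3 was 14.1 times the median of the other 7 libraries and rested on 27840 counts. The edgeR log2 fold change of 2.18 (standard error 1.05, interval -0.37 to 4.72, adjusted p = 0.464) rested on that library, and without it the log2 fold change was 0.21. Gm10222, whose 294 bases are all those of mt-Nd4l, was at 595 CPM in CAC 3 and at 562 to 687 CPM in the other libraries. In CAC 3 the copy therefore held 0.073 times the counts of its parent, against 0.694 to 1.24 times elsewhere. The ends of both are shown, with the bases of mt-Nd4l beyond the end of the copy in capitals (chrM:10111-10173, plus strand, and chr1:24612407-24612466, minus strand), together with the 7 bases that mt-Nd4l shares with mt-Nd4, in capitals on the last line (chrM:10147-10193, plus strand).
mt-Nd4l: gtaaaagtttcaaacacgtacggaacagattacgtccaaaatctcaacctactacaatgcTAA
Gm10222: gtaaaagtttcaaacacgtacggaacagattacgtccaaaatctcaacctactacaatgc
mt-Nd4l to mt-Nd4: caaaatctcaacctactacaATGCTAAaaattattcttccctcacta

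mt-Co1 (ENSMUSG00000064351.1, chrM:5328-6872) was at 3546, 7606, 3761 and 12524 CPM in CTR 1 to 4 and at 3615, 4578, 3935 and 5857 CPM in CAC 1 to 4. CTR 4 and CTR 2 were highest, and the remaining CTR libraries were among the lowest of all 8, so the groups overlapped. Without CTR 4 the edgeR log2 fold change moved from -0.61 to -0.14. Gm29216, which matches the end of mt-Co1, was at 4140 CPM in CTR 3 and at 747 to 1037 CPM in the other libraries, and it held 1.10 times the counts of mt-Co1 in CTR 3. Its log2 fold change of -0.96 (adjusted p by edgeR of 0.606) was 0.03 without that library. mt-Atp8 was at 251, 704, 224 and 239 CPM in CTR 1 to 4 and at 245, 202, 953 and 250 CPM in CAC 1 to 4, with a log2 fold change of 0.23 (interval -1.44 to 1.90) that was -0.61 without CAC 3 and 0.80 without CTR 2. In the libraries where mt-Atp8 was high, mt-Atp6, which overlaps it, held 23101 CPM (CTR 2) and 20294 CPM (CAC 3), within the range of the others.

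**Figure D5:**
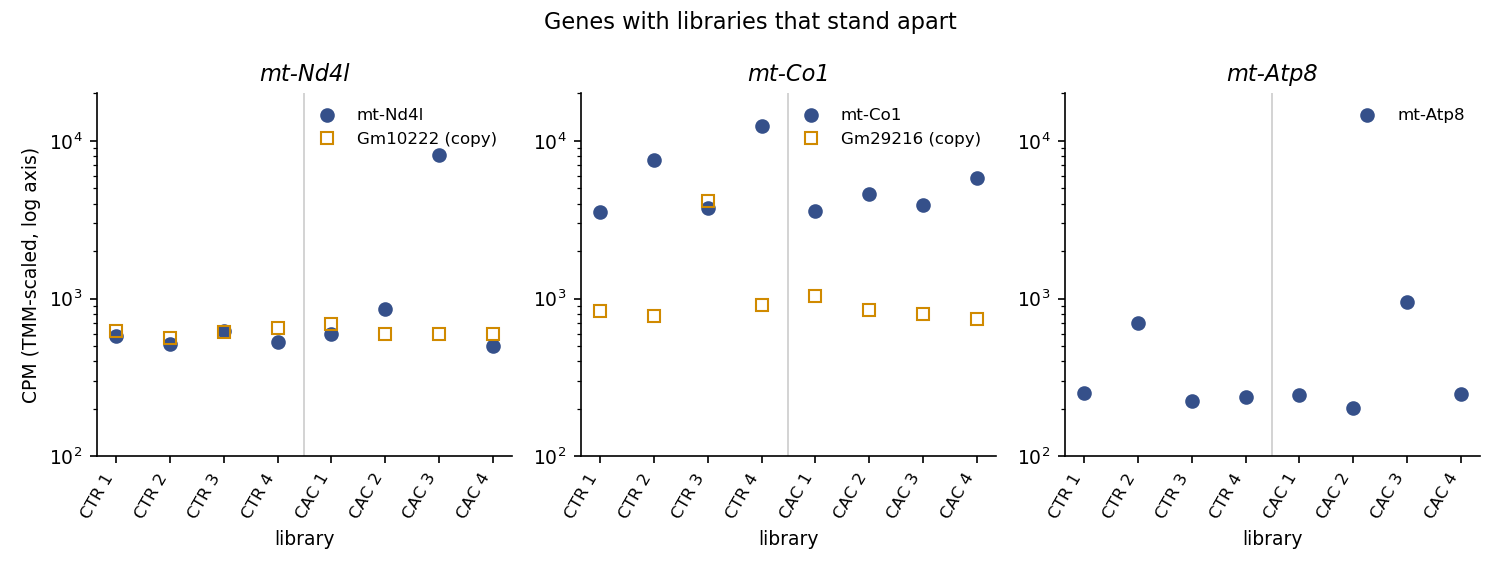
Level in CPM on a log axis (y axis) in each library (x axis) for mt-Nd4l with its copy Gm10222, mt-Co1 with its copy Gm29216, and mt-Atp8. mt-Nd4l reaches 8158 CPM in CAC 3 while Gm10222 stays at 595 CPM, and Gm29216 reaches 4140 CPM in CTR 3 while mt-Co1 does not stand out there.

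The nuclear genes that act on mitochondrial DNA and RNA were read from the same fit. Of 71 such genes listed, 70 were in the table and 53 were tested, and 1 of them had an adjusted p below 0.05, beside 0.932% of all genes tested. The called gene was Ppargc1a, which encodes PGC-1α, a coactivator that drives mitochondrial biogenesis and thermogenic genes. It was at 43.9, 44.7, 52.5 and 66.4 CPM in CTR 1 to 4 and at 106.5, 65.9, 91.1 and 82.4 CPM in CAC 1 to 4. It rose in CAC, with means of 51.9 ± 10.4 CPM in control and 86.5 ± 16.9 CPM in cachectic mice (SD, n = 4). The log2 fold change was 0.73 ± 0.15 (SE), and edgeR gave an adjusted p of 0.0201, although CAC 2 lay just below CTR 4. The call was lost without CTR 1 (adjusted p = 0.0877), without CTR 2 (0.0751) and without CAC 3 (0.0875). Of the 53 genes, 34 had a negative and 19 a positive log2 fold change, with a median of -0.09.

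By function, 0 of 7 transcription genes, 0 of 5 DNA replication genes, 0 of 15 mRNA stability and decay genes, 0 of 12 RNA processing genes and 0 of 8 translation genes passed the adjusted threshold in edgeR's test, and 1 of 6 nuclear regulators did. With an unadjusted p below 0.05 these groups had 0, 2, 1, 1, 1 and 1 genes, or 11.3% of the 53 beside 12.9% of all genes tested, and by DESeq2 the whole list again had 1 call. The smallest p with a negative log2 fold change was in Fastkd3, a member of a family of mitochondrial RNA-binding proteins, with CTR and CAC means of 8.87 ± 1.37 and 4.17 ± 1.5 CPM (SD, n = 4, log2 fold change -1.06, adjusted p by edgeR of 0.0707) without overlap, and it was called with no filter on low counts (adjusted p = 0.0216). Ssbp1, which coats single-stranded mitochondrial DNA, and Twnk, the replicative helicase, followed, with log2 fold changes of -0.85 and -0.47 (adjusted p by edgeR of 0.246 and 0.423) and levels of at most 13.1 CPM in any library. Among genes with a positive log2 fold change, Hsd17b10, a subunit of mitochondrial RNase P, averaged 103.8 ± 8.36 CPM in the CTR group against 131.2 ± 14.1 CPM in the CAC group without overlap (log2 fold change 0.34, adjusted p by edgeR of 0.151). Polg, the mitochondrial DNA polymerase, had a log2 fold change of 0.49 (adjusted p by edgeR of 0.341).

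The nuclear subunits of complexes I, III, IV and V are the partners of the proteins encoded by mitochondrial DNA. The list used here also took in subunits of complex II, which has none encoded by mitochondrial DNA. Of 85 nuclear subunit genes tested, 69 had a negative and 16 a positive log2 fold change, with a median of -0.11. For the 13 mitochondrial mRNAs there were 9 negative and 4 positive, with a median of -0.09. That last median was -0.02 without CTR 4, -0.03 without CAC 2 and -0.15 without CAC 3. All CAC libraries lay below all CTR libraries in 20 of the 85 (23.5%) and in 3 of the 13 mitochondrial mRNAs (23.1%), beside 3.39% of all genes tested. An unadjusted p below 0.05 by edgeR was found in 29 of the 85 (34.1%), all with a negative log2 fold change. Among the 13 mitochondrial mRNAs there were 3 (23.1%), also all negative, beside 12.9% of all genes tested. At an adjusted p below 0.05 by edgeR, beside 0.932% of all genes tested, 2 of the 85 fell, Ndufa4 and Cox7c, named after their values were seen, with log2 fold changes of -0.53 and -0.56 (adjusted p by edgeR of 0.0443 and 0.00998). In fits that left out 1 library, 0 to 4 of the 85 were called, with 0 without CTR 1, 1 without CTR 2, CAC 1, CAC 2 or CAC 3, and 4 without CTR 3. Over all genes the fits called 42 of 10137 without CTR 1 and 64 of 9965 without CTR 2. They called 135 of 10148 without CTR 3 and 113 of 10024 without CTR 4. Without CAC 1 to 4 in turn they called 128 of 10166, 66 of 10155, 60 of 9975 and 78 of 9969. The call of Ndufa4 was lost in 6 of these 8 fits, those without CTR 1, CTR 2, CTR 4, CAC 1, CAC 2 or CAC 3, and that of Cox7c in the fit without CTR 1 (adjusted p = 0.0570). The log2 ratio of the summed CPM of mitochondrial mRNAs to that of the nuclear subunits averaged 2.22 ± 0.10 over the CTR and 2.25 ± 0.08 over the CAC libraries (SD, n = 4), a difference smaller than either SD. Without mt-Nd4 it was 1.25 ± 0.13 and 1.21 ± 0.16.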

How the data were processed

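The 8 BAT libraries came from 4 CTR and 4 CAC mice and were grouped by the labels. The authors checked reads with FastQC 0.11.9, aligned them to mm10 with HISAT2 2.2.1 and counted them with featureCounts with its multi-mapping option (strand setting not given in the sources used here). The deposited table holds expected counts for 56953 genes, with fractions of reads and no normalization. The other deposited table (24792 genes) is a signal scaled with DESeq2 by the authors, and 100.0% of the values checked were the count without decimals divided by 1 size factor per library, within 0.01 counts. It holds the 37 mitochondrially encoded genes and 0 of the 3 copies, and was used for an alternative only.

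Counts were rounded, filtered with filterByExpr, scaled by TMM and tested over 9876 genes with edgeR 4.0.16 (R 4.3.3, robust quasi-likelihood test, no covariate, Benjamini-Hochberg adjustment, threshold 0.05). Simulated counts for CAC against CTR had changes set in 200 genes drawn at random from all levels. Over 9602 genes, the test called 69 of 95 genes with a log2 change of 1, 15 of 97 with 0.5 and 6 of 9410 with 0. CPM were scaled by the same factors. Fold changes have 95% intervals from the fit. Copy to parent ratios used counts plus 0.5 and were tested by two-sided exact permutation (70 assignments). Shares were described with no test.

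Copies were found with blastn 2.17.0, at 90% identity or more over at least 100 bases, among the GENCODE M21 transcripts. Positions and sequences are those of GENCODE M21 (GRCm38), matched by gene ID without version, since 0.0615% of the IDs match with version and 91.4% without it. The release used for counting was not given in the sources used here.

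Named genes were all mitochondrial mRNAs and rRNAs, tested tRNAs, the 3 copies, other copies with a mean of at least 5 CPM, and, of the nuclear genes acting on mitochondrial DNA and RNA, those called and the 3 with the smallest p in each direction. Ndufa4, Cox7c and the untested mt-Tf were named after their values were seen. Members and lists were chosen with earlier results of these data known. Kiaa0391 of that list had no match in the table. The settings tried instead were upper quartile or library size scaling, DESeq2 1.42.0, scaling on genes outside mitochondrial DNA and the 3 copies, a minimum of 10 counts per library or no filter, a block for the replicate number, each library left out, copies added to parents, the limma-trend test (limma 3.58.1) of the deposited signal plus 1 or 0.5, and other settings of the share and the ratios. Adding all 11 copies with a mean of at least 5 CPM to their parents, the share without mt-Nd4l, mt-Co1 and mt-Atp8, and levels per kb and complex shares with copies added were chosen after seeing the data. Figures were drawn with Python 3.11.15 and matplotlib 3.10.9.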

Additional observations from a re-analysis of the deposited data

Results flagged for a closer look

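Of 76 sets of 4 libraries examined, 1 per group for each tested member and each other copy, 11 held a library far from the rest by Dixon's test at the 95% level, where chance alone flags about 1 in 20, or 3.8 of 76. Within CTR these were mt-Atp8 in replicate 2 (703.8 CPM against 223.8 to 250.6 in the others), Gm28438 in replicate 3 (1984 CPM against 2182 to 2210), Gm29216 in replicate 3 (4140 CPM against 778.0 to 910.8) and Gm13341 in replicate 1 (39.3 CPM against 33.2 to 33.4). Within CAC these were mt-Nd4l in replicate 3 (8158 CPM against 499.9 to 855.1), mt-Atp8 in replicate 3 (952.8 CPM against 201.8 to 250.2), mt-Co2 in replicate 2 (6760 CPM against 7459 to 7539), mt-Tl1 in replicate 2 (22.6 CPM against 16.0 to 16.8), mt-Tw in replicate 2 (442.2 CPM against 490.4 to 493.3), Gm10222 in replicate 1 (687.3 CPM against 593.4 to 595.1) and Gm4076 in replicate 4 (20.7 CPM against 2.16 to 5.32). The values of mt-Nd4l, mt-Atp8 and Gm29216 were over 2 times the highest of the others in their group, as was that of Gm4076, which rested on few counts. The causes were not tested.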

How the results depend on the processing

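With 4 mice per group and 1823167 to 4827956 counts per library, differences of 0.5 on the log2 scale were rarely called in simulated data (15 of 97), and tRNAs near 3 counts could not be compared. The changed genes of the simulation were drawn at random from all levels, so this rate need not hold for the members. Standard errors of the members in edgeR's fit ran from 0.09 in mt-Nd3 to 1.05 in mt-Nd4l. Of 556 values of the 30 tested members under other settings, 496 kept their direction and side of the threshold, 3 kept their direction but had no adjusted p by DESeq2 (mt-Nd4l, mt-Tk and mt-Ty), 7 passed the threshold and 50 changed sign, in 13 members. No mitochondrially encoded gene was called under the other scalings, with at least 10 counts in every library, with copies added to their parents, on the deposited signal, or in the 8 fits that left out 1 library. None of Gm28437, Gm10925 and Gm28661 was called under those scalings, that filter or in those 8 fits, and the deposited signal does not list them. DESeq2 called 1 mitochondrially encoded gene (mt-Nd3) and 1 of these 3 copies (Gm28661). Without a filter on low counts, 3 mitochondrially encoded genes, 2 of these 3 copies and 2 nuclear genes acting on mitochondrial DNA and RNA, Ppargc1a and Fastkd3, were called. These calls came with 351 over all genes, against 92, and 42 to 135 when 1 library was left out. Among the nuclear genes, 0 to 1 were called when 1 library was left out, with 0 without CTR 1, CTR 2 or CAC 3. Calls among the 85 nuclear subunits were 5 by DESeq2 (5.88%, beside 1.27% of all genes) and 11 without a filter (12.9%, beside 1.48%). The cause was not tested.

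Same-numbered libraries showed no sign of pairing, with deviations from the group means that correlated at 0.03, -0.02, 0.03 and 0.04. These values cannot tell whether mice were housed or handled together. With the replicate number as a block, 0 mitochondrially encoded genes, 0 copies and 1 of the nuclear genes were called and mt-Nd3 had a log2 fold change of -0.36, while calls over all genes came to 140.

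Of the other copies, Gm28438 and Gm13339 were called by DESeq2 and without a filter, and Gm13339 also without CTR 3 or CAC 3.

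Some log2 fold changes changed sign. That of mt-Ts1, at 0.000037, was -0.010 by DESeq2, -0.014 by library size, -0.021 by upper quartile, -0.023 without a filter, -0.00011 with at least 10 counts, -0.055 with the replicate block, -0.070 and -0.072 on the deposited signal with 1 and 0.5 added, and -0.0011 with all 11 copies added to parents. mt-Tw was -0.016 by upper quartile and -0.022 without a filter, and mt-Nd4 -0.0031 and -0.0083. On the deposited signal with 1 and 0.5 added, mt-Ti was 0.0027 and 0.0027 and mt-Tk 0.0019 and 0.0030. With 1 library left out, log2 fold changes that changed sign ran from -0.098 to 0.060 in Gm28437, -1.20 to 0.028 in Gm29216, -0.61 to 0.80 in mt-Atp8, -0.035 to 0.21 in mt-Nd2, -0.062 to 0.087 in mt-Nd4, -0.19 to 0.016 in mt-Nd5, -0.079 to 0.020 in mt-Nd6, -0.34 to 0.077 in mt-Te, -0.054 to 0.18 in mt-Th, -0.059 to 0.089 in mt-Ti, -0.20 to 0.069 in mt-Tk, -0.21 to 0.038 in mt-Tm, -0.19 to 0.14 in mt-Ts1 and -0.069 to 0.17 in mt-Tw. Of the 17 tested members without a sign change, 6 stayed within 1.5 times their value when 1 library was left out (mt-Nd3, mt-Co2, mt-Cytb, mt-Tt, Gm10925 and Gm28661) and 11 did not, among them mt-Nd1 (-0.20 to -0.057), mt-Atp6 (-0.16 to -0.019), mt-Co3 (-0.17 to -0.037), mt-Ty (-0.53 to -0.13) and mt-Tp (-0.63 to -0.23). In these fits mt-Tg ran from 0.15 to 0.38 and mt-Tl1 from -0.28 to -0.049. The difference in the ratio of Gm28661 to mt-Co2 ran from -0.037 to 0.084, and that of Gm10925 to mt-Atp6 from -0.33 to -0.092. For Gm28437 to mt-Co3 it ran from 0.017 to 0.10. The difference in the mitochondrial share ran from -1.93 to -0.503 percentage points, and it was -2.20 with the copies added.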
